A study of Mus musculus with 11 samples.

Results

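The 10 genes described here encode enzymes that supply glycerol 3-phosphate and build triglyceride from it: Pck1, Pck2, Gpd1, Gpd1l, Gpd2, Gpam, Agpat2, Lpin1, Dgat1 and Dgat2. They were chosen by symbol, as Pck1 and Gpd1 with their isoforms and the main enzymes of triglyceride synthesis, out of 38393 genes in the deposited tables. Each symbol matched 1 Ensembl identifier, and all 10 genes were among the 15767 that reached 1 CPM (counts scaled to library size) in at least 5 of the 11 libraries and were tested. RNA was measured in whole eyes of C57BL/6 mice (C57Bl/6J in the methods) aged 1 to 2 months after lens and cornea had been taken off, in 5 wild-type (WT) and 6 miR-211-/- (KO) libraries, with the aim of finding transcripts that change when this microRNA is missing. KO mice carry a deletion that takes out the miR-211 precursor, for which the methods name no driver or cell type, whereas the design text calls them neural. The controls were age-matched littermates that carry no other listed allele or treatment. By the methods all KO animals were male and the WT animals were of both sexes, so that sex and genotype are in part confounded. The labels do not give the sex behind each library, and the level of the female transcript Xist is given below. Libraries are called WT1 to WT5 and KO1 to KO6 by their labelled replicate numbers. By the methods they stand for 5 WT and 6 KO animals, although another sentence there counts 6 WT samples. The methods do not say whether 1 eye or both went into each library. The libraries do not measure mature microRNAs, so the labels could not be checked on miR-211 itself, and its host gene Trpm1 differed between genotypes by 0.01 on the log2 scale (standard error 0.15).

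Triglyceride needs a glycerol backbone, which enters as glycerol 3-phosphate. Cells make it by reducing the glycolytic intermediate dihydroxyacetone phosphate, or, where glucose is short, from pyruvate and lactate by a shortened form of gluconeogenesis called glyceroneogenesis, in which phosphoenolpyruvate carboxykinase is the characteristic enzyme. Fatty acids are then added by acyltransferases in sequence, with removal of the phosphate before the last step. Adipose tissue, and brown adipose tissue in particular, is known for glyceroneogenesis, while elsewhere the same enzymes also serve membrane phospholipid synthesis and the transfer of reducing equivalents to mitochondria.

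The deleted microRNA and its closest relative share their seed (bases 2 to 8), which is shown in capitals because it is the part that pairs with target RNAs. The sequences are from RefSeq on GRCm38.p6, at chr7:64205831-64205852 (plus strand) for miR-211 and chr19:22750610-22750631 (plus strand) for miR-204.
mmu-miR-211-5p: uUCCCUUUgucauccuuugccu
mmu-miR-204-5p: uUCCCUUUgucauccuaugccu
The 7 letters AAAGGGA that complement this seed were looked for in the longest annotated 3′ UTR of each gene. Of the 10 genes Gpd2 alone held them, at 2 places, and 14.9% of 21022 genes with an annotated 3′ UTR held at least 1. The first lies 152 bases into the Gpd2 3′ UTR and is shown in capitals with 8 bases on either side.
Gpd2: aagaaaggAAAGGGAtaagcaaa
A match of letters is a description of the sequence and not a measured site.

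Promoter windows of 250 bases before to 50 after the start site were given for 7 of the 10 genes. The windows of the cytosolic and the mitochondrial carboxykinase are shown because these isoforms had the widest and the narrowest range of CPM of all 10 genes over the 11 libraries. In Pck1, on chr2:173152823-173153122 (plus strand, GRCm38.p6), capitals mark the core letters of the cAMP response element, TGACG, found on the minus strand and therefore printed as CGTCA, from position -90 relative to the start site.
Pck1: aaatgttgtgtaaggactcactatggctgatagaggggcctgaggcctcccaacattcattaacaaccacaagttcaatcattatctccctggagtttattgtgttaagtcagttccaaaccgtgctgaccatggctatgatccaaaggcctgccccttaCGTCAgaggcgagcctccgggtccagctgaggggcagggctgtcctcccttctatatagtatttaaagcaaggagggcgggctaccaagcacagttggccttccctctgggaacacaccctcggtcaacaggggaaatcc
Pck2, on chr14:55540016-55540315 (plus strand), holds none of the letters searched and has no capitals.
Pck2: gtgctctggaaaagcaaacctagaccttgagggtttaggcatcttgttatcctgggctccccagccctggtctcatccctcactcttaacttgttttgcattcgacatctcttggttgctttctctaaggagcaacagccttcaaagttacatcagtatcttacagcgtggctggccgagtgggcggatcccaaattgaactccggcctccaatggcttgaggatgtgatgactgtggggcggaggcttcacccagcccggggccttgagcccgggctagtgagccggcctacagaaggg
The core TGACG was searched on both strands and lies in 20.9% of 32544 promoters. Besides Pck1 it was found in 1 of the 2 Gpam windows, at 2 places. The E-box CACGTG, present in 7.17% of promoters, was found in Gpd1l at position -127. The full cAMP response element TGACGTCA contains the core and lies in 1.80% of promoters. It was found in none of the 9 windows of these 7 genes. Nor were the letters TATAAA of the TATA box, in 13.6% of promoters, or the PPAR response element, in 0.04%. Only exact letters were searched, so a variant of an element, such as another form of the TATA box, would be missed.

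Pck1 (ENSMUSG00000027513, chr2:173153048-173159273, plus strand, GRCm38) encodes the cytosolic phosphoenolpyruvate carboxykinase, the enzyme that commits carbon to glyceroneogenesis. In WT1 to WT5 its level was 127, 73.2, 0.603, 36.8 and 7.77 CPM. In KO1 to KO6 it was 66.4, 1.51, 0.258, 1.38, 0.628 and 0.466 CPM. Pck1 was therefore high in 3 WT libraries and in KO1, intermediate in WT5 and at 1.51 CPM or less in WT3 and 5 KO libraries. These low libraries held 6 to 55 read pairs of Pck1, and the genotypes overlapped. The mean was 49.1 ± 52.2 CPM in WT (SD, n = 5) and 11.8 ± 26.8 CPM in KO (SD, n = 6). At the extremes 3596 read pairs were counted in WT1 and 6 in KO3, and CPM differed 492.7-fold between these libraries. The log2 fold change of KO against WT was -2.06 (standard error 1.35) with an adjusted p of 1.00 in edgeR's likelihood-ratio test. By a two-sided exact permutation test over all 462 assignments of genotype to the libraries, log2 CPM gave p = 0.0801, where the smallest p possible is 0.00216.

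Pck2 (ENSMUSG00000040618, chr14:55540266-55551242, plus strand), the mitochondrial isoform that catalyses the same reaction, had the smallest ratio of highest to lowest CPM over the 11 libraries, 1.29. It lay between 17.0 and 21.1 CPM in WT and between 16.3 and 18.8 CPM in KO libraries, and the groups overlapped. Its coefficient of variation was 7.90% in WT and 5.48% in KO, against 106% and 227% for Pck1. KO against WT gave a log2 fold change of -0.13 (standard error 0.11; edgeR, adjusted p = 1.00). All 6 KO libraries were below the WT median of 19.1 CPM, and the exact permutation test gave p = 0.0498 without adjustment for the 10 genes tested, and 0.065 when genotypes were exchanged only within library series (defined below with the series comparison).
On the FPKM scale, which corrects for transcript length, the isoforms changed places between libraries. The FPKM ratio of Pck1 to Pck2 was 8.98, 4.90, 0.0537, 2.28 and 0.587 in WT1 to WT5 and ranged from 0.0201 to 4.59 in KO libraries with a median of 0.0772. Pck1 was thus the more abundant carboxykinase transcript in WT1, WT2, WT4 and KO1, and Pck2 in the other 7 libraries.

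Gpd1 (ENSMUSG00000023019, chr15:99717515-99725005, plus strand) encodes the cytosolic NAD-dependent glycerol 3-phosphate dehydrogenase, which reduces dihydroxyacetone phosphate to the backbone of triglyceride. Its level was 102, 102, 16.0, 71.6 and 24.0 CPM in WT1 to WT5. It was 87.2, 30.7, 22.6, 20.1, 10.8 and 13.3 CPM in KO1 to KO6. The same 4 libraries as for Pck1 were high, and KO1 lay inside the WT range while KO5 and KO6 lay below every WT library. The mean was 63.2 ± 41.5 CPM in WT (SD, n = 5) and 30.8 ± 28.5 CPM in KO (SD, n = 6). KO against WT differed by -1.04 on the log2 scale (standard error 0.60; edgeR, adjusted p = 1.00), and the exact permutation p was 0.160.

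Gpd1l (ENSMUSG00000050627, chr9:114899341-114933987, minus strand), which encodes a cytosolic protein similar to Gpd1 with low enzyme activity, spread only 1.72-fold over all libraries. It lay between 43.4 and 73.6 CPM in WT and between 42.9 and 58.8 CPM in KO, a log2 difference of -0.14 (standard error 0.15). The FPKM ratio of Gpd1 to Gpd1l was above 1 in WT1, WT2, WT4 and KO1, at 2.54, 2.92, 1.5 and 2.32, and between 0.383 and 0.798 in the other 7 libraries.
Gpd2 (ENSMUSG00000026827, chr2:57237635-57370719, plus strand) encodes the mitochondrial FAD-linked dehydrogenase, which oxidises glycerol 3-phosphate and completes the glycerophosphate shuttle. It lay between 24.7 and 47.2 CPM in WT and between 20.6 and 49.5 CPM in KO, with KO1 the highest and KO5 the lowest of all 11 libraries. KO against WT differed by -0.17 on the log2 scale (standard error 0.25; edgeR, adjusted p = 1.00). The size of this difference was below its standard error in this fit. Gpd2 is the only gene of the 10 with letters matching the miR-211 seed in its 3′ UTR. Whether miR-211 acts on Gpd2 was not tested.

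Gpam (ENSMUSG00000024978, chr19:55067268-55127238, minus strand) encodes the mitochondrial glycerol 3-phosphate acyltransferase, which adds the first fatty acid. It lay between 84.9 and 104 CPM in WT and between 77.3 and 99.4 CPM in KO, a log2 difference of -0.09 (standard error 0.10). Only KO3 was below the WT range.
Agpat2 (ENSMUSG00000026922, chr2:26593057-26604417, minus strand) encodes the acyltransferase of the next step, which makes phosphatidic acid and is needed for normal fat tissue. Its level was 21.3, 13.5, 4.14, 11.4 and 5.58 CPM in WT1 to WT5. It was 35.9, 7.07, 7.70, 4.05, 4.04 and 5.32 CPM in KO1 to KO6. KO1 was the highest of all libraries, whereas the other 5 KO libraries lay at or below the lower part of the WT range. The log2 fold change was -0.07 (standard error 0.62; edgeR, adjusted p = 1.00), and it moved to -0.99 (standard error 0.42) without KO1. Leaving out any 1 of 7 other libraries (WT1, WT2 or KO2 to KO6) turned its sign and gave values of 0.01 to 0.30.

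Lpin1 (ENSMUSG00000020593, chr12:16535669-16610966, minus strand) encodes lipin 1, a phosphatidate phosphatase that yields diacylglycerol. It lay between 63.5 and 94.5 CPM in WT and between 54.7 and 96.6 CPM in KO, a log2 difference of -0.21 (standard error 0.17). KO1 was again the highest library, and 5 of 6 KO libraries were below the WT median of 85.0 CPM.
Dgat1 (ENSMUSG00000022555, chr15:76502015-76511953, minus strand) and Dgat2 (ENSMUSG00000030747, chr7:99153658-99182719, minus strand) encode unrelated diacylglycerol acyltransferases that add the last fatty acid. Dgat1 stayed between 32.4 and 37.4 CPM in WT and between 28.8 and 37.8 CPM in KO, a log2 difference of -0.09 (standard error 0.10). Dgat2 was 80.7, 52.5, 15.9, 42.6 and 18.1 CPM in WT1 to WT5.
In KO1 to KO6 Dgat2 was 51.4, 27.8, 17.4, 19.8, 18.9 and 15.6 CPM. WT1, WT2, WT4 and KO1 were high, as for Pck1 and Gpd1, and the groups overlapped. For Dgat2 the log2 fold change was -0.74 (standard error 0.44; edgeR, adjusted p = 1.00), and the exact permutation p was 0.266. The FPKM ratio of Dgat1 to Dgat2 ran from 0.863 in WT1, where Dgat2 was the more abundant transcript, to 4.51 in KO6.

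**Figure D1:**
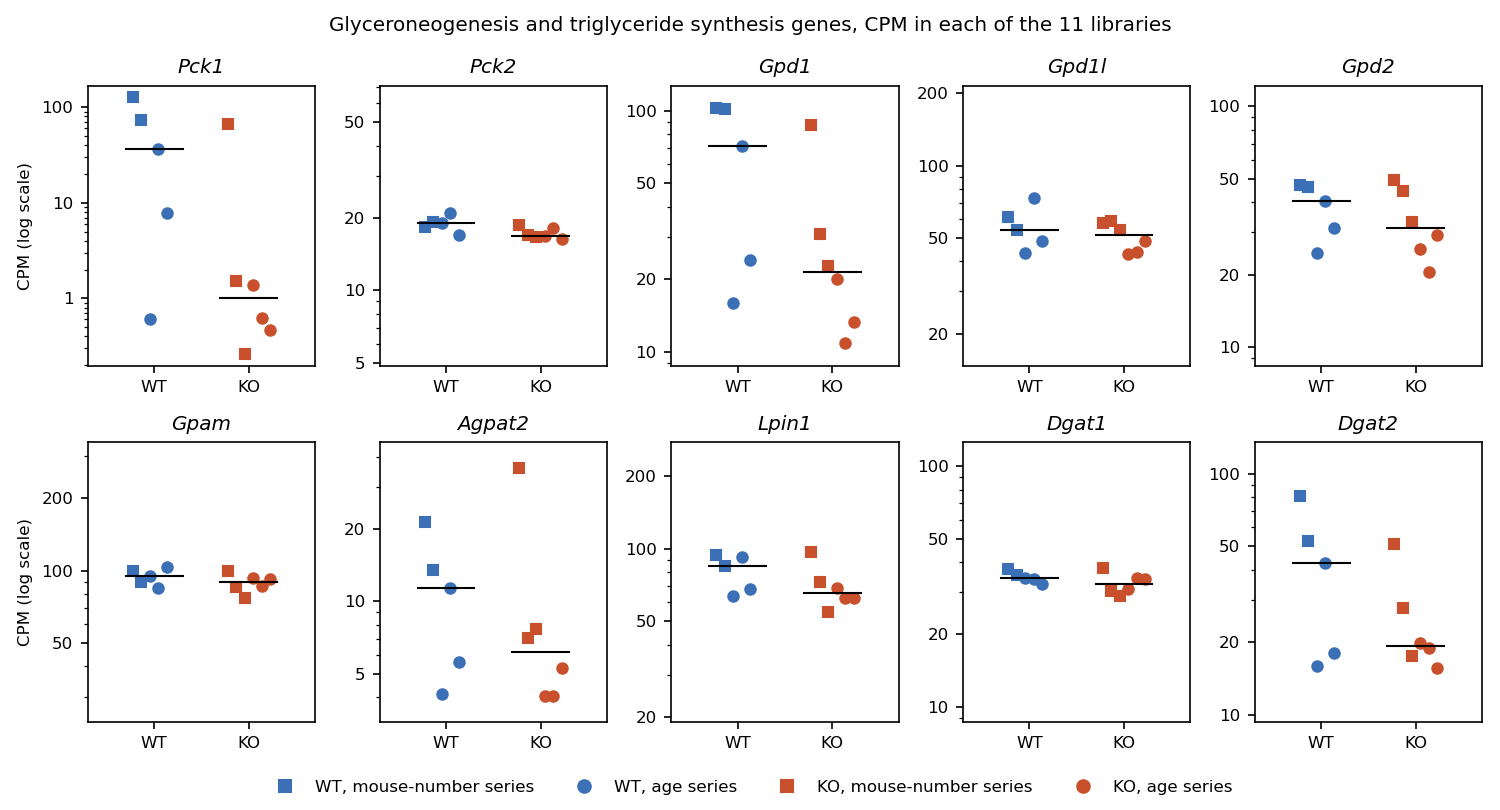
CPM (log axis) of each of the 10 genes in the WT libraries (blue) and the KO libraries (orange); squares are libraries of the mouse-number series, circles those of the age series, black lines the median of each genotype. The Pck1 panel spans 0.258 to 127 CPM and has its own, longer axis, while the other 9 panels share the same fold range; the KO square that stands high in Pck1, Gpd1, Agpat2 and Dgat2 is KO1.

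Of the 10 genes, 0 passed an adjusted p of 0.1 in the comparison of KO with WT, where 0.00634% of all tested genes did, 1 gene. That gene was Xist, a transcript of the inactive X chromosome of females. Its level was 794 CPM or more in WT1, WT3 and WT5 and 1.29 CPM or less in the other 8 libraries. The methods list 3 female WT animals and only male KO animals, and WT2 and WT4 were as low in Xist as the KO libraries. Pck1 was at 127, 0.603 and 7.77 CPM in WT1, WT3 and WT5, which have Xist, and at 73.2 and 36.8 CPM in WT2 and WT4. The part of sex in the level of Pck1 was not tested. By edgeR's quasi-likelihood test and by DESeq2 0 of the 10 genes passed as well. At an unadjusted p under 0.05, 0 of the 10 were lower in KO by any of the 3 tests, where 1.77% of tested genes were by the likelihood-ratio test. All 10 log2 fold changes were below 0, where 48.9% of tested genes were, with a median of -0.16 against 0.00 over all tested genes. The genes share libraries, so their common sign is not 10 separate observations. Genotypes overlapped in all 10 genes, and in 0.184% of tested genes they did not.

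The libraries belong to different series, between which the levels of some of these genes differed. The column names of the study's gene table carry either a mouse number (WT1, WT2, KO1, KO2 and KO3, here the mouse-number series) or an age (WT3, WT4, WT5, KO4, KO5 and KO6, the age series). What else differed between them is not stated.
With genotype in the model, 5 of the 10 genes were higher in the mouse-number series at an adjusted p under 0.1 (edgeR's likelihood-ratio test), against 21.7% of all tested genes, and none was lower. Pck1 differed by 3.91 on the log2 scale (standard error 1.23, adjusted p = 0.00900 by edgeR). Agpat2 differed by 1.65 (standard error 0.45, adjusted p = 0.00227 by edgeR) and Gpd1 by 1.58 (standard error 0.43, adjusted p = 0.00225 by edgeR). Dgat2 differed by 1.08 (standard error 0.32, adjusted p = 0.00570 by edgeR) and Gpd2 by 0.66 (standard error 0.16, adjusted p = 0.000527 by edgeR). The remaining 5, Pck2, Gpd1l, Gpam, Lpin1 and Dgat1, differed by -0.03 to 0.24 and did not pass. The quasi-likelihood test called the same 5 genes.
The series did not separate cleanly in any of the 10 genes. KO3, of the mouse-number series, had the lowest Pck1 of all libraries, and WT4, of the age series, was above KO2 and KO3 in Pck1, Gpd1 and Dgat2. Over all tested genes, 4.91% had every mouse-number library above every age-series library.

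With the series as a covariate the genotype difference of Pck1 was -3.32 (standard error 1.21; edgeR, adjusted p = 0.456), of Gpd1 -1.24 (standard error 0.43; adjusted p = 0.395) and of Dgat2 -0.74 (standard error 0.32; adjusted p = 0.629). These 3 genes had an unadjusted p under 0.05, where 5.23% of tested genes were lower in KO at that level, and 0 of the 10 passed adjustment, where 0.0634% of tested genes were lower and passed. Within the age series alone the log2 fold change of Pck1 was -4.16 (standard error 1.25; edgeR, adjusted p = 0.202) and of Gpd1 -1.32 (standard error 0.56; adjusted p = 0.947). Within the mouse-number series alone they were -2.14 (standard error 1.64; edgeR, adjusted p = 0.999) and -1.13 (standard error 0.56; adjusted p = 0.999). Both genes thus had the same sign in both series. In each series alone 0 of the 10 genes passed, against 0.222% of tested genes lower and passing in the age series and 0.019% in the mouse-number series. At an unadjusted p under 0.05, Pck1 and Gpd1 were lower in the age series (3.46% of tested genes) and Gpd1 and Dgat2 in the mouse-number series (2.65%). The difference of the genotype contrast between the series was 2.05 for Pck1 (standard error 2.21) and 0.21 for Gpd1 (standard error 0.89), and it passed adjustment in 0 of the 10 genes, and an unadjusted p of 0.05 in 0, with 0.019% of tested genes passing adjustment by edgeR. When genotypes were exchanged only within series (200 assignments, two-sided exact permutation), p was 0.055 for Pck1, 0.05 for Gpd1 and 0.125 for Dgat2.

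In the fit with genotype as the only term, KO1 was the only single library whose omission changed the call of Pck1. Without KO1 the remaining 5 KO libraries lay between 0.258 and 1.51 CPM, and WT3 alone of the WT libraries was in that range. The log2 fold change was then -5.84 (standard error 1.13; edgeR, adjusted p = 0.00191), and Pck1 was 1 of 10 genes to pass, where 0.0701% of tested genes were lower and passed. Gpd1 was at -1.69 (standard error 0.51; edgeR, adjusted p = 0.307), Dgat2 at -1.07 (standard error 0.41; edgeR, adjusted p = 0.896) and Lpin1 at -0.33 (standard error 0.14; edgeR, adjusted p = 0.999). With Agpat2, these made 5 of the 10 genes with an unadjusted p under 0.05, against 3.92% of tested genes lower in KO. With the series as covariate and KO1 left out, Pck1 at -5.20 (standard error 1.05; edgeR, adjusted p = 0.00199) and Gpd1 at -1.57 (standard error 0.38; edgeR, adjusted p = 0.0196) passed, 2 of the 10 genes, where 0.561% of tested genes were lower and passed. Without WT1 the differences were smaller, at -1.33 for Pck1, -0.80 for Gpd1 and -0.36 for Dgat2 on the log2 scale, and 0 of the 10 genes passed. KO1 is labelled as KO like the others, and leaving it out was a choice made after its values were seen.

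**Figure D2:**
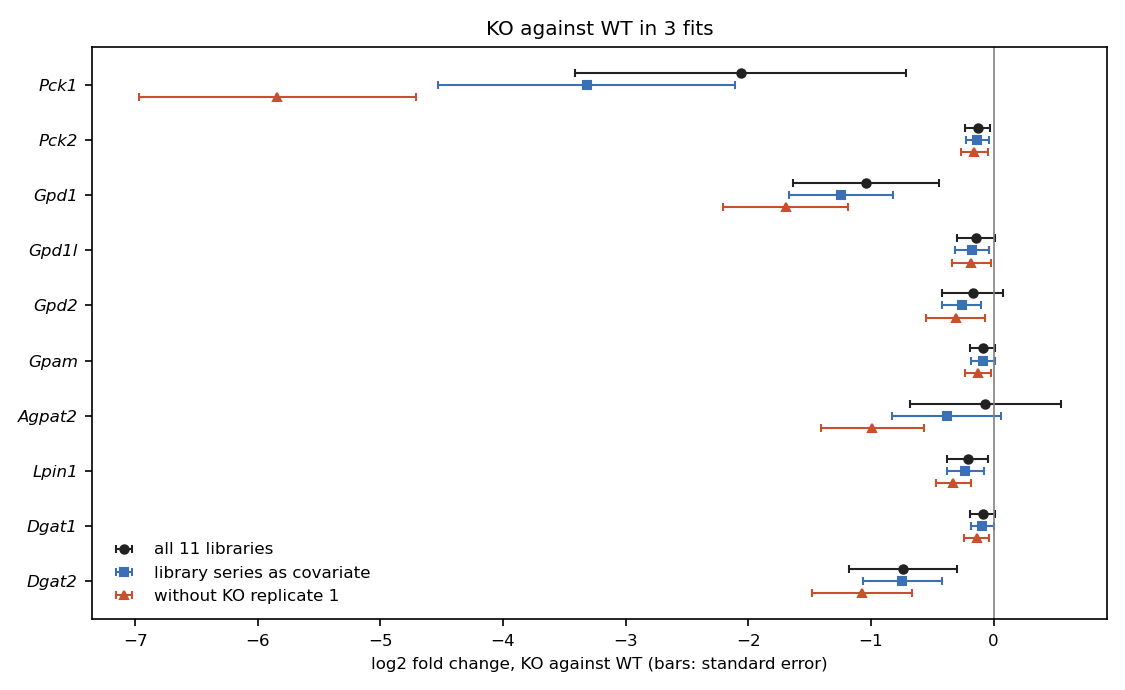
Log2 fold change of KO against WT (x axis) for each gene, with its standard error as bars, in the fit to all 11 libraries (black circles), with the library series as covariate (blue squares) and without KO replicate 1 (orange triangles). Pck1 moves from -2.06 to -3.32 and -5.84 and Agpat2 from -0.07 to -0.38 and -0.99, while the points of Pck2, Gpd1l, Gpam and Dgat1 stay between 0 and -0.20 in all 3 fits.

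Marker genes of other tissues moved with the same libraries. The summed level of 11 adipocyte markers, with Adipoq, Plin1 and Cidec first among them, was 629, 422, 57.9, 247 and 107 CPM in WT1 to WT5. In KO1 to KO6 it was 373, 98.9, 57.1, 67.1, 59.3 and 56.4 CPM. WT1, WT2, WT4 and KO1 were thus the 4 highest, as for Pck1, Gpd1 and Dgat2. Adipoq, the adipocyte hormone adiponectin, ranged from 0.344 to 41.4 CPM and was at 0 in no library. Of the 11 markers 9 were tested, all 9 had a log2 fold change below 0, with a median of -1.57, and all 9 were higher in the mouse-number series at an adjusted p under 0.1. The whole eye is labelled as retina, pigment epithelium, choroid, sclera and ciliary body, with no fat named. In these bulk libraries fewer cells of a type and less RNA per cell cannot be told apart.
Skeletal muscle markers, 11 genes, summed to between 1521 and 12028 CPM in WT and between 1264 and 11421 CPM in KO, again highest in WT1, WT2 and KO1. Lens markers, of a tissue labelled as removed, reached 82976 CPM in WT4, 23275 CPM in KO3 and 3162 CPM in KO6 and were between 3.67 and 66.6 CPM elsewhere. Without these 3 libraries the log2 fold change of Agpat2 was 0.20 and 0 of the 10 genes passed. Cornea and conjunctiva markers summed to between 1193 and 8863 CPM, and the rod markers, which define the retina, to between 25778 and 40829 CPM. Cone markers summed to between 719 and 850 CPM, pigment epithelium markers to between 1707 and 2228 CPM, Müller glia markers to between 3669 and 4795 CPM and blood markers to between 144 and 1935 CPM.

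Over the 11 libraries log2 CPM of Pck1 followed the log2 summed adipocyte markers with Pearson's r = 0.98 and Spearman's rho = 0.99. The points share library, depth and composition, and the value is a description. It was 0.97 without WT1 and WT2, the libraries farthest from the median, 0.98 within the 6 age-series libraries and 0.98 within the 6 KO libraries. For Dgat2 r was 0.98, for Gpd1 0.96, for Lpin1 0.93 and for Agpat2 0.89. Skeletal muscle markers were followed almost as closely, with r of 0.94 for Gpd1, 0.89 for Dgat2, 0.88 for Pck1, 0.87 for Lpin1 and 0.86 for Agpat2. Spearman's rho was higher with muscle than with adipocyte markers for Gpd1 (0.97 against 0.90) and Agpat2 (0.89 against 0.72). Dgat1 at 0.69, Gpd1l at 0.67, Pck2 at 0.57 and Gpam at 0.35 followed the adipocyte markers less closely. Gpd2 had its highest r with skeletal muscle markers, 0.95 against 0.83 with adipocyte markers, and Gpd1l with cornea and conjunctiva markers, 0.78. With rod markers 9 of the 10 genes had a negative r, down to -0.90 for Dgat2, and Gpam was at 0.01.
The CPM ratio of Pck1 to Adipoq was 3.07, 2.89, 1.75, 3.98 and 1.88 in WT1 to WT5. In KO1 to KO6 it was 3.44, 0.509, 0.375, 1.6, 0.727 and 0.857. KO1 thus had a ratio inside the WT range, and the other 5 KO libraries had lower ratios than every WT library, on counts that were small in both genes. Against the summed adipocyte markers the groups were less apart. That ratio was 0.202, 0.174, 0.0104, 0.149 and 0.0729 in WT1 to WT5 and 0.178, 0.0153, 0.00452, 0.0205, 0.0106 and 0.00826 in KO1 to KO6. KO2, KO4 and KO5 as well as KO1 were above WT3 on this scale. The sum itself had a mean of 292 CPM in WT and 119 CPM in KO. A gene that differed less than the sum between genotypes therefore tends to a higher ratio in KO through the denominator alone. For every gene of the 10 other than Pck1 the mean ratio to this sum was higher in KO than in WT. This included Pck2, at 0.227 in KO against 0.130 in WT, and is not a rise of these genes. The mean ratio was 0.276 in KO against 0.239 in WT for Gpd1, 0.269 against 0.174 for Dgat2 and 0.0876 against 0.0472 for Agpat2. The genotypes overlapped in these 3 ratios. The part of adipocyte or muscle RNA in the Pck1 and Gpd1 differences was not tested.

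**Figure D3:**
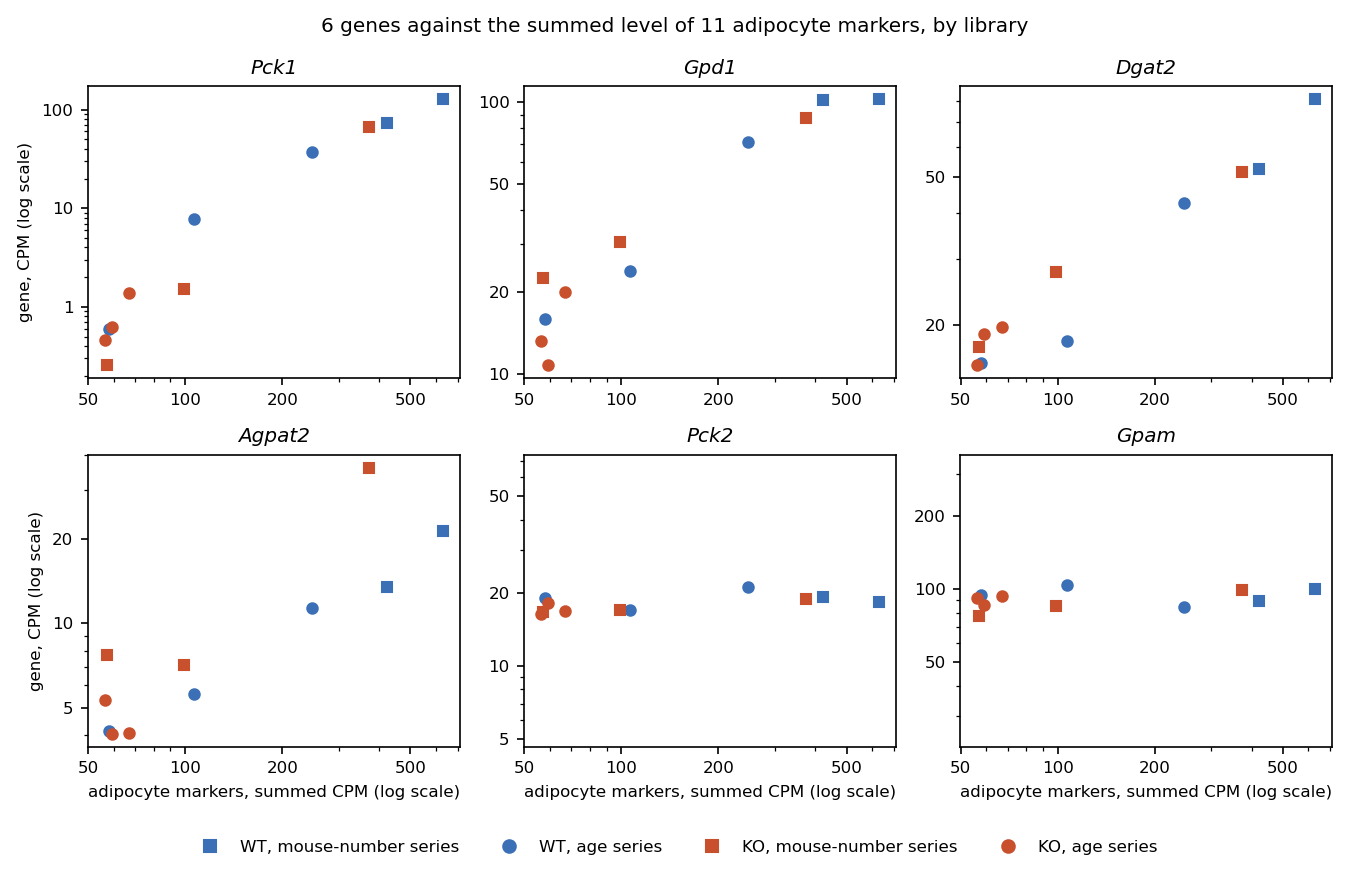
CPM of 6 genes (y axis, log) against the summed CPM of 11 adipocyte markers (x axis, log) in the 11 libraries; colours and symbols give genotype and library series. Pck1, Gpd1, Dgat2 and Agpat2 are highest in the 4 libraries with the most adipocyte markers (WT1, WT2, WT4 and KO1), and Pck2 and Gpam form nearly level rows.

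**Figure D4:**
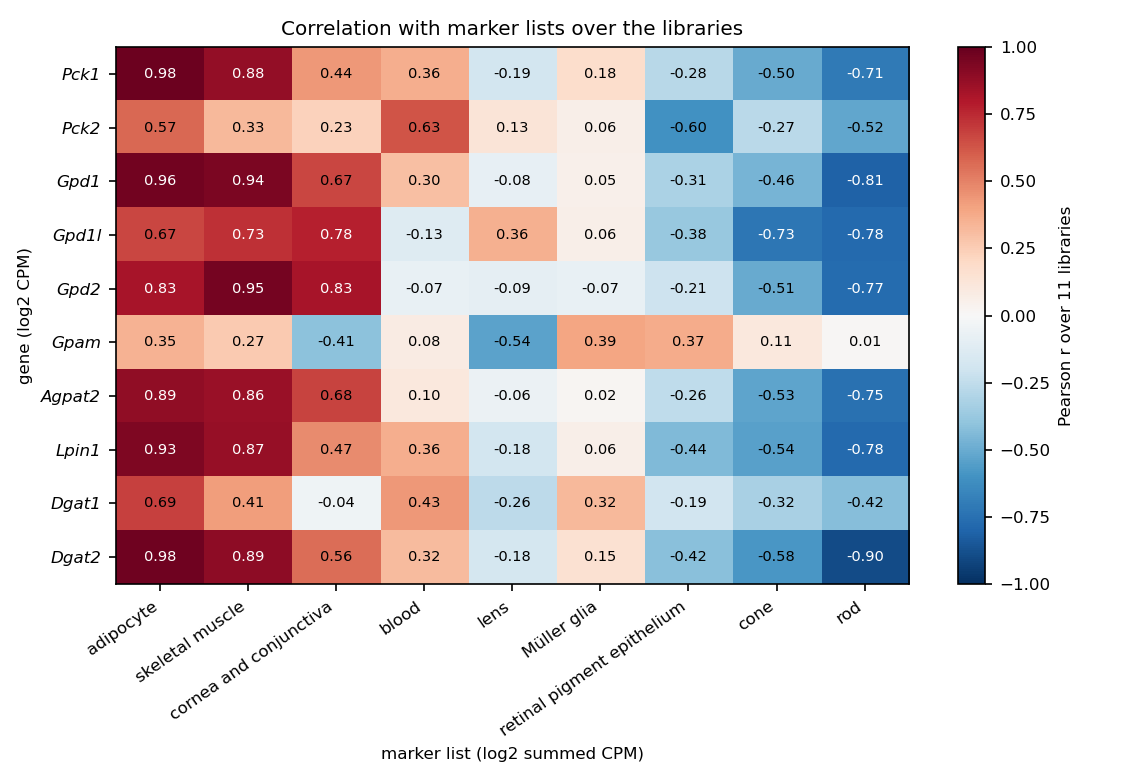
Pearson's r over 11 libraries between log2 CPM of each gene (rows) and the log2 summed CPM of each of 9 marker lists (columns); red is positive and blue negative, and the printed numbers are the values. The adipocyte column holds 0.98 for Pck1 and Dgat2 and 0.96 for Gpd1, and the Gpam row stays between -0.54 and 0.39.

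By mean FPKM the order was Dgat1 (30.1 ± 2.72, SD over 11 libraries), Gpam (24.3 ± 2.65), Gpd1 (16.0 ± 12.9), Dgat2 (14.8 ± 9.45), Lpin1 (13.4 ± 2.32), Gpd1l (12.4 ± 1.53), Pck1 (10.9 ± 16.5), Agpat2 (8.05 ± 7.58), Gpd2 (6.41 ± 1.76) and Pck2 (5.39 ± 0.318). The ranges of all 9 pairs of neighbours in this order overlapped, but Dgat1 was above Gpam in 11 of 11 libraries. Gpd1 was above Dgat2 in 5 of 11 and Pck1 above Agpat2 in 3 of 11, so that these places rest on a few high libraries. The order also differed by genotype. In KO the mean FPKM of Lpin1 (12.7), Gpd1l (12.1) and Dgat2 (11.6) was above that of Gpd1 (11.02), and Pck1 (4.52) was last, whereas in WT Pck1 (18.6) was above Lpin1 (14.2). Pck1 was the only gene to take places from first, in WT1 at 49.3 FPKM, to last, in WT3, WT5 and 5 KO libraries. Dgat1 and Gpam led the order in all 5 KO libraries other than KO1.

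The genes whose log2 CPM was most like that of Pck1 over the 11 libraries, among all tested genes, were Pnpla2, Cidec, Plin1, Cfd and Pcsk6, with r of 0.98, 0.98, 0.98, 0.98 and 0.97. Pnpla2, Cidec, Plin1 and Cfd are in the adipocyte list. For Gpd1 they were Cd300lg, Lpl, Fabp4, Slc36a2 and Hhatl, with r of 0.99, 0.98, 0.98, 0.98 and 0.97. The most similar gene was Dhrs11 for Agpat2 (0.98), Acacb for Lpin1 (0.98), Gpc1 for Dgat2 (0.98), Hsp90ab1 for Gpd1l (0.98), Cep85 for Gpam (0.91), Apba3 for Dgat1 (0.89) and Gga2 for Pck2 (0.87), and for Gpd2 an identifier without a symbol in the annotation used (0.99). Among the 10 genes themselves r was highest between Gpd1 and Dgat2 (0.95), Pck1 and Lpin1 (0.94) and Pck1 and Gpd1 (0.94), and lowest between Gpd1l and Gpam (-0.20).

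The other genes of the pathway were described from 4 lists. Of 16 other acylglycerol synthesis enzymes 14 were tested, 0 passed an adjusted p of 0.1 and 0 an unadjusted p of 0.05 by edgeR, 9 had a log2 fold change below 0, and the median was -0.04. Mogat1, a monoacylglycerol acyltransferase, was at 38.1 CPM in KO1 and between 4.0 and 5.86 CPM in the other 10 libraries. Plpp3, a lipid phosphate phosphatase, was at 86.2 ± 15.7 CPM in WT (SD, n = 5) and 72.0 ± 14.3 CPM in KO (SD, n = 6), with a log2 fold change of -0.26.
Of 13 genes of gluconeogenesis and oxaloacetate supply 9 were tested, 0 passed either threshold, 8 of the 9 had a log2 fold change below 0, and the median was -0.12. Pcx, pyruvate carboxylase, which makes the oxaloacetate that Pck1 uses, was at 107, 59.5, 44.8, 73.1 and 51.2 CPM in WT1 to WT5 and between 41.1 and 72.0 CPM in KO, with a median of 45.6 CPM. Its log2 fold change was -0.45 (standard error 0.23; edgeR, unadjusted p = 0.0508, adjusted p = 1.00). For Slc25a1, the mitochondrial citrate carrier, the log2 fold change was -0.22 (standard error 0.24). Among the enzymes that lead on to free glucose, G6pc was at no more than 0.0392 CPM, Fbp1 at no more than 0.129 CPM and Fbp2 at no more than 1.73 CPM in any library, whereas the glucose-6-phosphatase G6pc3 was at 28.2 to 40.9 CPM.

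Of 19 genes of fatty acid synthesis and activation all were tested and 0 passed, with a median log2 fold change of 0.01. Elovl5, a fatty acid elongase, had an unadjusted p under 0.05 upward in KO, and its 541 CPM in KO1 against 41.2 to 54.7 CPM in the other 10 libraries made that difference, since without KO1 the log2 fold change was -0.05. Of 17 lipogenic and gluconeogenic regulators all were tested and 0 passed, with a median of -0.03. Thrsp, a thyroid hormone-responsive protein of lipogenic tissues, was at 65.7, 38.8, 14.9, 28.3 and 17.2 CPM in WT1 to WT5 and between 14.9 and 29.2 CPM in KO. Its log2 fold change was -0.88 (standard error 0.36; edgeR, unadjusted p = 0.0147, adjusted p = 1.00), and the highest KO library was again KO1. In the series comparison 4 of 14, 5 of 9, 8 of 19 and 5 of 17 genes of these lists, in the order given, were higher in the mouse-number series at an adjusted p under 0.1, beside 5 of the 10 genes described here and 21.7% of all tested genes. Of the 17 regulators 4 were lower in that series, and of the other 3 lists 0 genes were.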

How the data were processed

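Whole-eye RNA of 5 WT and 6 KO libraries was read in pairs of 100 nt. Per the submitters' processing notes and the methods, the authors quantified genes of Gencode M4 with RSEM 1.2.19 and deposited expected counts, which are unscaled estimates of read pairs per gene, and FPKM values, scaled by RSEM for length and mapped fragments. An aligner version is not given in the sources used here.

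Expected counts were rounded (20282279 to 36317730 read pairs per library; 1 CPM is 20.3 read pairs at the lowest total, so low levels of Pck1 rest on few read pairs). Genes with at least 1 CPM in 5 libraries were normalized by TMM and fitted with edgeR 4.0.16 (glmFit, glmLRT, genotype as the term; R 4.3.3), after the study's generalized linear model, with Benjamini-Hochberg adjustment and a threshold of 0.1. The standard error is the log2 fold change divided by the square root of the likelihood ratio. Log2 CPM has a prior count of 2. Tests were also run on simulated counts, drawn independently for each gene and without an outlying library or tissue RNA shared between genes. Those runs do not show how the tests behave where such features are present. FPKM entered limma 3.58.1 as log2(FPKM + 0.1) and log2(FPKM + 1) among the alternatives, which also held the quasi-likelihood test, DESeq2 1.42.0, other scalings and filters, a replicate block, the library series, and each library left out.

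The series came from matching each library, by the proportion of its counts, to a column of the study's gene table. Symbols and positions were from Gencode M21 (GRCm38), promoters and microRNAs from RefSeq (GRCm38.p6), and 95.4% of identifiers had a symbol. The 10 genes, the pathway and marker lists and the tests were chosen with earlier results of these data known. The study names Pck1 and Gpd1 among the genes it found lower in KO on these libraries, so their direction is not independent evidence. Neither gene passed in the fit to all libraries here, where Xist alone of 15767 tested genes did. The study listed many more genes at the same threshold of 0.1, so the difference is not particular to Pck1 and Gpd1. Its source was not tested. Other genes were named by rule: in each pathway list those with an unadjusted p under 0.05, or else the 2 with the smallest p, the first markers of each marker list, Xist and Trpm1 as checks, and the genes most correlated with each of the 10. A row for a reporter sequence held 0 in every library.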

Additional observations from a re-analysis of the deposited data

Results flagged for a closer look

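KO1 stood apart from the other 5 KO libraries, by the gap to its nearest neighbour as a share of the range, in 4 of the 10 genes. It was at 66.4 CPM in Pck1 (next highest 1.51), 87.2 CPM in Gpd1 (next 30.7), 35.9 CPM in Agpat2 (next 7.70) and 51.4 CPM in Dgat2 (next 27.8). The same held for KO1 in Mogat1 at 38.1 CPM, Pcx at 72.0 CPM, Elovl5 at 541 CPM, Thrsp at 29.2 CPM and the summed adipocyte markers at 373 CPM. Lens markers stood apart in WT4 at 82976 CPM among WT and in KO3 at 23275 CPM among KO libraries. Of 52 groups of libraries looked at, 11 held such a library. The genes share libraries, so these are not 11 separate events. The limit used gives about 1 in 20 by chance for normally distributed values, which unlogged CPM need not be. Some of the genes were also named for their p in these same libraries, so the 11 of 52 cannot be set against that share. No difference of the genotype contrast between the library series passed adjustment in the 10 genes.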

How the results depend on the processing

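Of 259 log2 fold changes recomputed for the 10 genes, 246 kept their direction and their side of the threshold, 5 newly passed it and 8 changed sign, all 8 in Agpat2. The number of genes passing was 0 in the fit to all libraries and 0 to 1 with each library left out, where the 1 was Pck1 without KO1. It was 1 without both libraries numbered 1 and 2 with the series as covariate and KO1 left out, both chosen after seeing the data. It was 1 with the replicate number as a block (Pck1 at -3.30, adjusted p = 0.0510 by edgeR, KO6 left out, with 10 of 15715 tested genes passing). The labels give no pairing behind that number. Deviations from the genotype mean had a mean r of 0.22 in same-numbered pairs, above 0.1 in 3 of 5 pairs. The mean r was 0.30 in pairs of the same series with different numbers and -0.32 in pairs of different series. All same-numbered pairs except WT3 and KO3 are of the same series, so number and series are in part confounded. Agpat2 was -0.99 without KO1, 0.30 without WT1, 0.01 without WT2, 0.03 without KO2, 0.01 without KO3, 0.10 without KO4, 0.10 without KO5, 0.07 without KO6 and 0.20 without the 3 libraries with lens crystallins. With the series as covariate, genes at an unadjusted p under 0.05 numbered 3 in place of 0 among other acylglycerol enzymes, 1 in place of 0 in gluconeogenesis, 2 in place of 1 in fatty acid synthesis and 4 in place of 1 among regulators. The order by FPKM was the same after rescaling each library to the same sum, and the cause of these shifts was not tested. With at least 10 counts required in every library Pck1 was not fitted. At 6 read pairs in KO3, depth limits how low Pck1 can be measured.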

Other observations

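KO1 was the highest of all 11 libraries in several lipid genes outside the 10, which were picked after their values were seen. Elovl6, an elongase of saturated fatty acids, was at 177 CPM in KO1 and at 74.6 to 104 CPM in the others. Acsl5, an acyl-CoA synthetase, was at 80.9 CPM against 18.0 to 40.8 CPM. Slc27a4, a fatty acid transporter, was at 113 CPM against 61.5 to 76.7 CPM, and Acly, which makes cytosolic acetyl-CoA, at 436 CPM against 279 to 315 CPM. Scd1, the stearoyl-CoA desaturase of fat and sebaceous glands, was instead high in both WT1 (753 CPM) and KO1 (710 CPM), against 50.5 to 278 CPM in the other 9 libraries. Pparg, a regulator of fat cell genes, was at 9.52 CPM in KO1, 5.63 CPM in WT1 and 5.03 CPM in WT2, and at 2.35 CPM or less elsewhere.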
